A study of Mus musculus with 12 samples.

Results

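The perilipins and the CIDE proteins sit on lipid droplets, the organelles in which cells store triglyceride. Their 8 genes, Plin1, Plin2, Plin3, Plin4, Plin5, Cidea, Cideb and Cidec, were taken by gene symbol from the 47729 genes measured by RNA-seq in denervated mouse fat. All 8 were found, each as a single row. The libraries came from interscapular brown adipose tissue (BAT) and from inguinal (IWAT), epididymal (EWAT) and retroperitoneal (RWAT) white adipose tissue, with 3 libraries per depot and 12 in all. Every mouse was a wild-type male C57BL/6J animal of 6 to 10 weeks on a standard low-fat rodent diet, and every depot had been denervated by surgery. Innervated fat was not analysed here, so depot is the only factor and no effect of denervation can be read from these values. No label ties the 3 libraries of 1 depot to different mice. The p-values therefore cover only the scatter of these samples, and that scatter may be technical. Libraries are written as the depot and the replicate number of the labels, for example BAT 2.

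Perilipins bind the droplet surface and control the access of lipases to the stored fat. PLIN1 is the perilipin of mature adipocytes: it holds back the lipase co-activator ABHD5 until catecholamine signalling phosphorylates it. CIDE proteins gather at the contacts between droplets and pass lipid from the smaller to the larger one, and the brown adipocyte keeps many small droplets where the white adipocyte keeps a single large one.

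Before the results, the libraries of a depot lay far apart in their cell type markers, and these values touch every result below. The summed level of 15 adipocyte markers, in TMM-scaled CPM (counts relative to library size), was 16290 to 41830 in BAT, 11780 to 45900 in IWAT, 7555 to 10200 in EWAT and 4154 to 33270 in RWAT. The lowest libraries of these depots were BAT 3, IWAT 3, EWAT 3 and RWAT 3, and RWAT 1 alone accounts for the high end of its depot. The 15 macrophage markers summed to 1205 to 5980 CPM in BAT, 1965 to 6536 in IWAT, 6476 to 8699 in EWAT and 2091 to 5945 in RWAT. The 10 measured brown adipocyte markers summed to 235.7 to 5435 CPM in BAT, 68.78 to 449 in IWAT, 15.8 to 22.05 in EWAT and 11.31 to 111.7 in RWAT. BAT 2 held 32.2 CPM of Ucp1, the uncoupling protein that defines brown fat, against 2962 CPM in BAT 1 and 702 CPM in BAT 3, and both IWAT 1 (47.6 CPM) and IWAT 2 (130 CPM) lay above BAT 2. In the sum of the brown markers BAT 2 lay inside the range of IWAT, so these markers do not set the library labelled BAT 2 apart from inguinal fat. The 16 skeletal muscle markers summed to 2539 to 21950 CPM in BAT and 17620 CPM in RWAT 3, and to 20.55 to 84.14 CPM in the other 8 libraries. The labels were used as given, and the part of dissection or labelling in the values of BAT 2, of RWAT 3 and of the muscle markers was not tested. In bulk tissue, fewer cells of a type and less RNA per cell cannot be told apart.

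Promoter sequences are shown for the members whose levels moved together over the libraries (Plin1, Plin4 and Cidec), for Plin5, and for Plin2, which followed a different pattern. Each is 300 bases of the minus strand of GRCm38.p6, from 250 bases before to 50 bases after a start site in RefSeq, written 5′ to 3′. Capitals mark matches, on either strand, to the 6 motifs searched: TTGCNNAA (the C/EBP type), AGGTCA (a nuclear receptor half-site), 2 such half-sites in direct repeat with 1 base between them (the element bound by PPAR with RXR), CACGTG (the E-box), CCAAT and TATAAA.
Plin1, chr7:79732727-79733026: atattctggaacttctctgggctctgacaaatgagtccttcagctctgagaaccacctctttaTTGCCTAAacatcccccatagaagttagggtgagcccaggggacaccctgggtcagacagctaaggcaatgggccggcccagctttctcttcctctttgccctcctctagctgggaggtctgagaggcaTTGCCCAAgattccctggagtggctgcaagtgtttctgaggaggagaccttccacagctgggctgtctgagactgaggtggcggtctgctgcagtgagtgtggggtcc
Plin4, chr17:56109733-56110032: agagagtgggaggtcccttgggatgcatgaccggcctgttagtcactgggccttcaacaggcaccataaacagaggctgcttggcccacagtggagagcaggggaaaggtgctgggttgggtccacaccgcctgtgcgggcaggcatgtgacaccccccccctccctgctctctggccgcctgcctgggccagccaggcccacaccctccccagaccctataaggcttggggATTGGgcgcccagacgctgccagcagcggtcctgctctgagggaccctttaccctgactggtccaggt
Cidec, second start site, chr6:113434715-113435014: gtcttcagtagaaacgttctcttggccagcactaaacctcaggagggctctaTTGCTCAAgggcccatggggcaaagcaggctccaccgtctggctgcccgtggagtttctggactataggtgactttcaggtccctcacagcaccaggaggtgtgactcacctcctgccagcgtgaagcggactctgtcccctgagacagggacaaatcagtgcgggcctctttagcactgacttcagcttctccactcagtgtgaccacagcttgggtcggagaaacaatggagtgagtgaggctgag
Plin5, first start site, chr17:56117499-56117798: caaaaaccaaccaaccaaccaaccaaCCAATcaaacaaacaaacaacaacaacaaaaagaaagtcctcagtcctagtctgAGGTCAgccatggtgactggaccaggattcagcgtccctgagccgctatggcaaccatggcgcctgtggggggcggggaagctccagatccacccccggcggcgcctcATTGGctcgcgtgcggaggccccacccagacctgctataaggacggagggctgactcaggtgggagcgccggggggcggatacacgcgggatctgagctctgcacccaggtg
Plin2, chr4:86670010-86670309: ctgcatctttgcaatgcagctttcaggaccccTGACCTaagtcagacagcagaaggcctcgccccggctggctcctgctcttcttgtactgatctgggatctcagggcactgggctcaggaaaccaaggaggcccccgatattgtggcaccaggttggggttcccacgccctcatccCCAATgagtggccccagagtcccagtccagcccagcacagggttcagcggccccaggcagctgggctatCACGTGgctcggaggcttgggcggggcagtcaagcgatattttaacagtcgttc

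The C/EBP type motif occurred at 2 places in the Plin1 window, with first bases at −187 and −58 (the start site is 0), and at −198 in the second Cidec window. Of 32851 windows of the same length over all genes, 10.8% held it. The first Cidec window held none of the 6 motifs, and Plin4 held only a CCAAT match at −18 (37.4% of all windows hold one). The nuclear receptor half-site was found in the Plin2 window at −218 and in both Plin5 windows, at −170 and at base 13 after the start, where 16.3% of all windows hold it. Its full direct repeat was in none of the windows of Plin1 to Plin5, Cideb and Cidec and in 0.0396% of all windows. Plin2 alone among these genes held the E-box, at −4 (7.15% of all windows), and Cideb alone held TATAAA, at −172 (13.6%). A match describes these letters in these windows and is not a binding site. Plin4 (chromosome 17, 56100591 to 56109803) and Plin5 (56111601 to 56117596) are neighbours on the minus strand, and Plin3 (56277476 to 56292873) lies on the same chromosome, all in GRCm38.

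Together the 8 genes held 3318 ± 702 TPM (the authors' transcript measure, which accounts for gene length) in BAT, 3471 ± 926 in IWAT, 2716 ± 542 in EWAT and 2566 ± 1730 in RWAT (SD, n = 3 each). TPM carries no TMM scaling, so these sums give no order of depots. Mean Plin3 was 36.0 TPM in BAT and 45.5 in EWAT, but 81.6 and 62.9 in TMM-scaled CPM. Mitochondrial genes held 13.0% to 19.0% of counts in BAT, 4.40% to 12.1% in IWAT, 3.56% to 4.87% in EWAT and 3.28% to 11.6% in RWAT. Their part in the TPM values was not tested. Cidec had the highest TPM of the 8 in BAT 1, BAT 2, BAT 3, IWAT 1, IWAT 2 and RWAT 1, with 32.1% to 46.2% of the sum. Plin2 led in the other 6 libraries, with 72.5% in EWAT 3, 66.9% in RWAT 2, 47.7% in RWAT 3, 44.9% in EWAT 1, 39.1% in IWAT 3 and 35.6% in EWAT 2. The leading gene differed between libraries of the same depot in both IWAT and RWAT. TPM depends on the effective length that RSEM weighs over isoforms. That length was 1001 to 1127 bases for Plin2, whose longest annotated transcript has 1888 bases, and 1120 to 1291 bases for Cidec, whose longest has 1720. Transcript estimates were not used here.

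**Figure D1:**
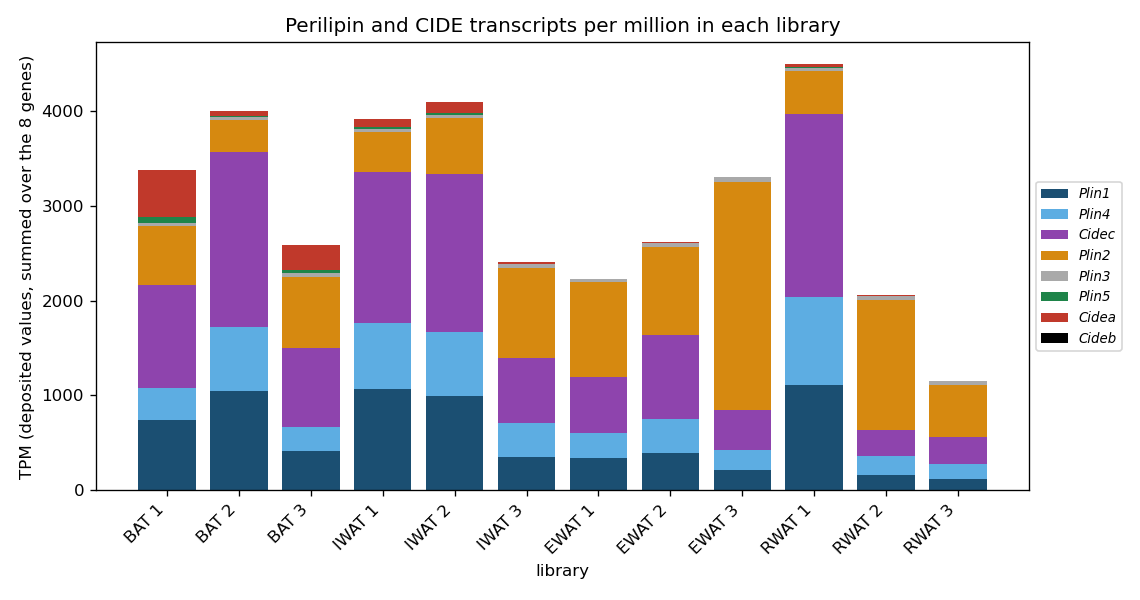
Stacked bars of deposited TPM (vertical axis) of the 8 genes in each of the 12 libraries (horizontal axis). Cidec, Plin1 and Plin4 together fill most of the bar in most libraries, among them BAT 2, IWAT 1, IWAT 2 and RWAT 1, while Plin2 holds 72.5% of the sum in EWAT 3 and 66.9% in RWAT 2.

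By TPM in BAT, the order of the genes was Cidec (1252 ± 526), Plin1 (735 ± 314), Plin2 (567 ± 208), Plin4 (424 ± 226), Cidea (272 ± 222), Plin3 (36.0 ± 11.7), Plin5 (31.5 ± 26.4) and Cideb (0.593 ± 0.453; SD, n = 3). In EWAT the order was Plin2 (1442 ± 825), Cidec (632 ± 231), Plin1 (318 ± 88.9), Plin4 (276 ± 77.3), Plin3 (45.5 ± 9.49), Cidea (1.71 ± 2.84), Plin5 (1.33 ± 0.852) and Cideb (0.0400 ± 0.0693). In BAT each gap from Cidec down to Cidea, and the gap between Plin3 and Plin5, was smaller than the SD of the higher gene. In EWAT the same held for Plin2 and Cidec, for Plin1 and Plin4 and for Cidea and Plin5. Cidea and Plin3 exchanged places: Cidea lay above Plin3 in each BAT library and below it in each EWAT library.

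Plin1, the adipocyte perilipin, held 1864, 1521 and 544 CPM in BAT 1 to BAT 3, 1937, 1476 and 354 CPM in IWAT 1 to IWAT 3, 429, 447 and 219 CPM in EWAT 1 to EWAT 3, and 1342, 178 and 146 CPM in RWAT 1 to RWAT 3. Replicate 3 was the lowest library of each depot, and the 5 highest libraries were BAT 1, BAT 2, IWAT 1, IWAT 2 and RWAT 1. Every BAT library lay above every EWAT library, as for 19.1% of all genes, while BAT overlapped IWAT and RWAT. The depot means ran BAT 1309 ± 685, IWAT 1256 ± 814, RWAT 555 ± 681 and EWAT 365 ± 127 CPM, with every neighbouring pair in that order overlapping.

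Cidec (also called FSP27), the CIDE protein that enlarges droplets in white adipocytes, had 1998, 2055 and 750 CPM in BAT 1 to BAT 3 and 1973, 1722 and 517 CPM in IWAT 1 to IWAT 3. In EWAT 1 to EWAT 3 it had 530, 781 and 321 CPM, and RWAT 1 to RWAT 3 held 1747, 201 and 233 CPM. The same 5 libraries as for Plin1 were high, and no depot was free of overlap with another. Plin4, a perilipin of white adipocytes with a long repeat region, had 3017, 3659 and 1154 CPM in BAT 1 to BAT 3 and 4440, 3411 and 1188 CPM in IWAT 1 to IWAT 3. Its levels in EWAT 1 to EWAT 3 were 1141, 1404 and 667 CPM, and RWAT 1 to RWAT 3 held 4060, 704 and 570 CPM. Again BAT 1, BAT 2, IWAT 1, IWAT 2 and RWAT 1 were the 5 highest libraries. The ratio of the highest to the lowest library was 13.3 for Plin1, 10.2 for Cidec and 7.79 for Plin4, and depot held 41.0%, 39.5% and 31.8% of their variance in log2 CPM, against a median of 38.2% over all genes.

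**Figure D2:**
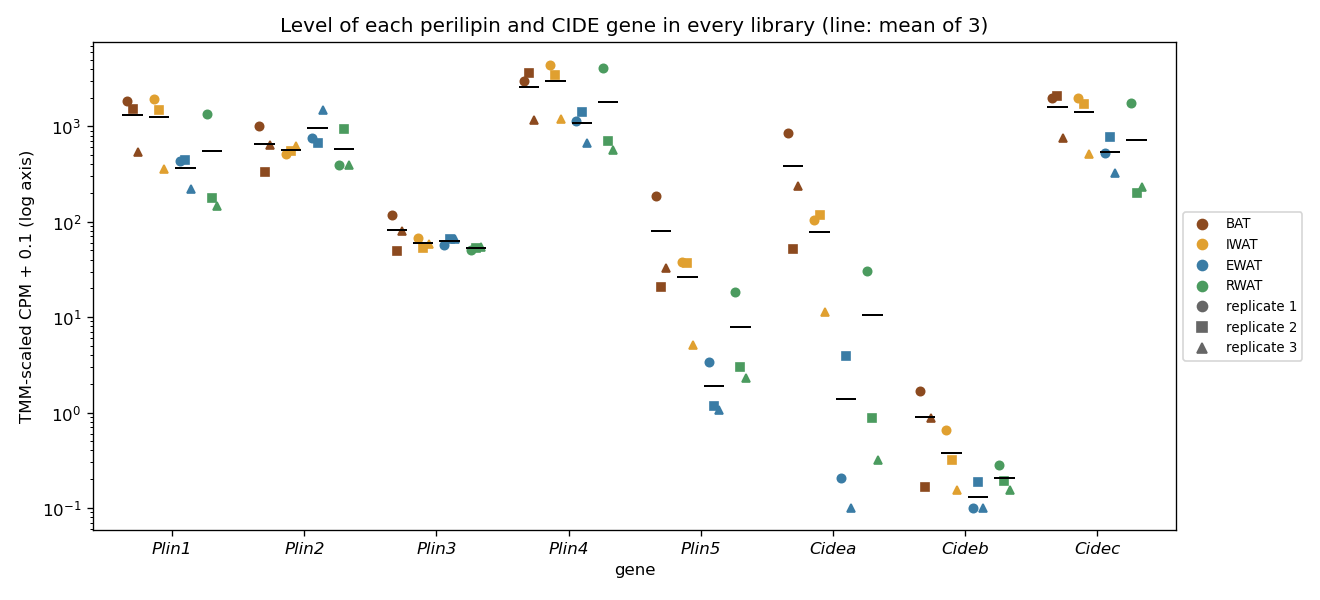
TMM-scaled CPM + 0.1 of each gene (log axis) in every library, with depots as colours, replicate numbers as marker shapes and a line at the mean of 3. Plin1, Plin4 and Cidec show the same 5 high libraries, Plin5 and Cidea spread over the depots, and Plin3 stays between 48.8 and 116 CPM.

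Plin5, a perilipin of oxidative tissues that ties droplets to mitochondria, had 186, 20.5 and 33.0 CPM in BAT 1 to BAT 3 and 37.7, 36.9 and 4.96 CPM in IWAT 1 to IWAT 3. EWAT 1 to EWAT 3 held 3.32, 1.07 and 0.950 CPM of Plin5, and RWAT 1 to RWAT 3 held 18.1, 2.88 and 2.17 CPM. All BAT libraries lay above all EWAT libraries (as for 19.1% of all genes) and all RWAT libraries (7.42%). All IWAT libraries lay above all EWAT libraries (11.8%), and BAT 2 and BAT 3 lay below IWAT 1 and IWAT 2. The highest library had 196 times the level of the lowest. RWAT 3, with 17620 CPM of skeletal muscle markers, held the lowest Plin5 level of its depot, close to RWAT 2. It also had the lowest sum of adipocyte markers of all libraries (4154 CPM). BAT 1 held both the most skeletal muscle markers (21950 CPM) and the most Plin5. The part of muscle in the Plin5 levels was not tested.

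Cidea, the CIDE protein of brown and beige adipocytes, had 853, 52.1 and 236 CPM in BAT 1 to BAT 3, and 104, 117 and 11.1 CPM in IWAT 1 to IWAT 3. EWAT 1 to EWAT 3 held 0.106, 3.77 and 0 CPM of Cidea, and RWAT 1 to RWAT 3 held 30.4, 0.766 and 0.217 CPM. EWAT 1 rests on 2 counts and EWAT 3 on 0 counts, where a count of 0 allows up to 3 counts or 0.150 CPM, counting error only. As for Plin5, every BAT library lay above every EWAT library (as for 19.1% of all genes) and every RWAT library (7.42%). Every IWAT library lay above every EWAT library (11.8%), and BAT 2 lay below IWAT 1 and IWAT 2. Depot held 73.7% of the variance of Cidea and 70.0% of that of Plin5, the highest shares among the 7 genes tested. Plin5 and Cidea were lowest within BAT in BAT 2, which was also the BAT library with the least Ucp1, although its Plin1, Plin4 and Cidec were as high as in BAT 1 or near it.

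Plin2, the perilipin of most cell types, which also coats droplets in macrophages, had 1008, 332 and 630 CPM in BAT 1 to BAT 3 and 517, 557 and 629 CPM in IWAT 1 to IWAT 3. The EWAT libraries held 754, 663 and 1495 CPM of Plin2, and RWAT 1 to RWAT 3 held 393, 946 and 391 CPM. EWAT 3 was the highest library and BAT 2 the lowest, 4.51-fold apart, and all IWAT libraries lay below all EWAT libraries, as for 13.1% of all genes. Plin3, a perilipin found both in the cytosol and on nascent droplets of many cell types, had 116, 48.8 and 79.7 CPM in BAT 1 to BAT 3. The 9 white libraries held 50.3 to 67.7 CPM of Plin3, below BAT 1 and BAT 3 and above BAT 2. EWAT (56.5, 65.9 and 66.3 CPM) lay above RWAT (50.3, 53.1 and 54.2 CPM) in every library for Plin3, as for 8.23% of all genes. Depot held 26.0% of the variance of Plin2 and 34.6% of that of Plin3, both under the median of all genes.

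Cideb, the CIDE protein of liver and intestine, had 20, 1 and 16 counts in BAT 1 to BAT 3, 11, 4 and 1 counts in IWAT, 0, 2 and 0 counts in EWAT and 3, 2 and 1 counts in RWAT. In 8 of the 12 libraries it was at or under 3 counts, and it did not pass the filter on low counts. Its level is uncertain for another reason as well: 1136 of its 1488 exon bases overlap exons of Nop9 on the opposite strand, and whether reads were counted by strand is not given in the sources used here. It was therefore not compared between depots, so 7 of the 8 genes were tested.

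For BAT against the average of the 3 white depots, edgeR's quasi-likelihood test called 0 of the 7 genes at a Benjamini-Hochberg adjusted p under 0.05, beside 0.0992% of the 19154 genes tested. The fitted log2 fold changes were 5.22 for Cidea (SE 1.3, adjusted p = 0.122) and 3.48 for Plin5 (SE 0.79, adjusted p = 0.101). Plin1 had 1.05 (SE 0.68, adjusted p = 0.392), Cidec 0.96 (SE 0.65, adjusted p = 0.404) and Plin4 0.54 (SE 0.62, adjusted p = 0.599). Plin3 had 0.49 (SE 0.21, adjusted p = 0.254) and Plin2 −0.06 (SE 0.40, adjusted p = 0.940). At an unadjusted p under 0.05 the test held Plin5, Cidea and Plin3, as it held 3476 of all genes. DESeq2 called Plin5 (adjusted p = 0.00232) and Cidea (adjusted p = 0.0252) among the 4.96% of genes it called, and limma-voom, which called 0.0157% of genes, called 0 of the 7. No member lay above, or below, all 9 white libraries in all 3 BAT libraries, where 0.471% and 0.753% of genes did. Without BAT 1, the library with the most Ucp1, the log2 fold change was 1.91 for Plin5 (adjusted p = 0.885) and 3.82 for Cidea (adjusted p = 0.866). Without BAT 2, the BAT library with the least, it was 3.94 for Plin5 (adjusted p = 0.149) and 5.74 for Cidea (adjusted p = 0.169), and without EWAT 2 it was 6.72 for Cidea (adjusted p = 0.194). Without RWAT 1, edgeR called Plin5 (4.02) and Cidea (6.67) at adjusted p = 0.0461 each, beside 1.27% of genes. With the replicate number added to the model as a block, edgeR called Plin5 (adjusted p = 0.0416) and Cidea (adjusted p = 0.0473), beside 3.39% of genes. Over 20 alternatives the adjusted p ran from 0.00232 to 0.885 for Plin5 and from 0.0252 to 0.866 for Cidea, and neither fold change changed sign. The fold change of Cidea also depends on the prior count that the fit adds in the depots near 0.

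Among the white depots, edgeR called 0 of the 7 genes between IWAT and the average of EWAT with RWAT (0.141% of all genes were called), with Plin5 and Cidea at an unadjusted p under 0.05, as were 2207 of the 19154 genes. The log2 fold change was 4.38 for Cidea (SE 1.49, adjusted p = 0.392), 2.84 for Plin5 (SE 0.90, adjusted p = 0.377) and 1.48 for Plin1 (SE 0.73, adjusted p = 0.451). Without RWAT 1 it was 6.56 for Cidea (adjusted p = 0.0694) and 3.65 for Plin5 (adjusted p = 0.0740), and without EWAT 2 it was 6.64 for Cidea (adjusted p = 0.422). Cidec had 1.16 (SE 0.70, adjusted p = 0.516), Plin4 1.13 (SE 0.66, adjusted p = 0.505), Plin3 0.04 (SE 0.22, adjusted p = 0.937) and Plin2 −0.40 (SE 0.43, adjusted p = 0.689). DESeq2 (1.9% of all genes) and limma-voom (0.0835%) called 0 of the 7. Limma-voom with sample quality weights, an alternative chosen after seeing the data, called Plin1, Plin4, Plin5, Cidea and Cidec, but it called 47.6% of all genes as well. No member lay above, or below, all EWAT and RWAT libraries in every IWAT library, where 0.92% and 1.66% of genes did. Between EWAT and RWAT, edgeR called 0 of the 7 genes (0.0418% of all genes) and held 0 at an unadjusted p under 0.05, and DESeq2 (2.85% of all genes) and limma-voom (0.0418%) called 0 too. The values were −2.97 for Cidea (SE 1.89, adjusted p = 0.717), −2.11 for Plin5 (SE 1.14, adjusted p = 0.652), 0.75 for Plin2 (SE 0.49, adjusted p = 0.727) and 0.26 for Plin3 (SE 0.26, adjusted p = 0.827). Plin1 had −0.61 (SE 0.88), Plin4 −0.73 (SE 0.79) and Cidec −0.42 (SE 0.83), with adjusted p = 0.884, 0.841 and 0.919 in edgeR. Without RWAT 1 these 3 log2 fold changes were 1.16, 0.74 and 1.32, and that of Cidea was 1.38. With every library kept, limma-voom gave 0.050 for Plin1 and 0.19 for Cidec, so no direction is given for these 4 genes between EWAT and RWAT.

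**Figure D3:**
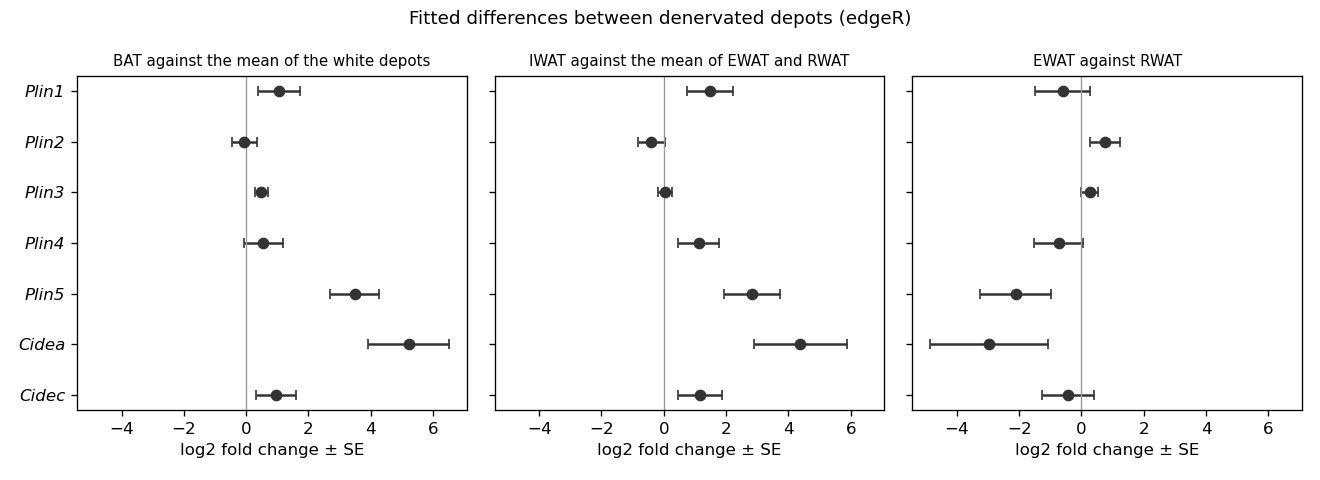
Fitted log2 fold change ± SE (horizontal axis) of the 7 tested genes (vertical axis) in 3 comparisons of depots. Plin5 and Cidea lie farthest from 0 in each panel, at 3.48 and 5.22 between BAT and white fat, and Plin2 and Plin3 lie closest to it in the first 2 panels.

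In single pairs of depots, edgeR with all 12 libraries and depot as the only term called 0 of the 7 genes throughout. Between BAT and EWAT, where 0.783% of all genes were called, the log2 fold change was 8.16 for Cidea (SE 2.33, adjusted p = 0.0769), 5.49 for Plin5 (SE 1.29, adjusted p = 0.0638) and 1.84 for Plin1 (SE 0.91, adjusted p = 0.209). Plin1, Plin5 and Cidea were higher in every BAT than in every EWAT library, a pattern that 19.1% of genes showed. Both Plin5 and Cidea had an unadjusted p under 0.05 there, as did 5300 of the 19154 genes. DESeq2 called Plin5 (adjusted p = 1.06e-05) and Cidea (adjusted p = 0.000778) beside 16.8% of all genes, and limma-voom called 0 of the 7 beside 0.0992%. Limma-voom with sample quality weights called Plin1, Plin5, Cidea and Cidec beside 24.7%. EdgeR called both without RWAT 1 (adjusted p = 0.0425 and 0.0461, beside 6.86% of genes) and Plin5 without BAT 3 (adjusted p = 0.0486, beside 9.7% of genes). Without BAT 1 the log2 fold change was 3.92 for Plin5 and 6.77 for Cidea, with adjusted p = 0.211 and 0.222, the highest over 20 alternatives. Without EWAT 2, the EWAT library with 88 of the depot's Cidea counts, it was 12.67 for Cidea (adjusted p = 0.195), and without EWAT 1 it was 6.30 for Plin5 (adjusted p = 0.0536).

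Between BAT and RWAT (0.0574% of all genes called) the log2 fold change was 5.19 for Cidea (SE 2.02, adjusted p = 0.322) and 3.37 for Plin5 (SE 1.16, adjusted p = 0.319), and these 2 genes were higher in every BAT than in every RWAT library, as were 7.42% of genes. Together with Plin3 (0.64, SE 0.26, adjusted p = 0.326) they had an unadjusted p under 0.05, as did 2844 of all genes, and DESeq2 called Plin5 alone (adjusted p = 0.0452, beside 1.79% of genes), and limma-voom called 0 of the 7 (0.00522% of genes). Between BAT and IWAT (0.0104% called) the values were 2.30 for Cidea (SE 1.77), 1.59 for Plin5 (SE 1.08) and 0.06 for Plin1 (SE 0.88), each with an edgeR adjusted p of 0.998 or 0.999. There DESeq2 (0.888% of all genes) and limma-voom (0.0104%) called 0 of the 7, and 0 of the 7 had an unadjusted p under 0.05.

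Between IWAT and EWAT (0.345% of all genes called) the log2 fold change was 5.87 for Cidea (SE 2.12, adjusted p = 0.231), 3.90 for Plin5 (SE 1.21, adjusted p = 0.176) and −0.77 for Plin2 (SE 0.49, adjusted p = 0.444). Plin5 and Cidea were higher in every IWAT library, as were 11.8% of genes, and Plin2 was lower in every IWAT library, as were 13.1%. Both Plin5 and Cidea had an unadjusted p under 0.05, as did 3104 of all genes, and DESeq2 called them (adjusted p = 0.00624 and 0.0420) beside 5.94% of genes, while limma-voom called 0 of the 7 (0.131% of genes). With sample quality weights it called 6 of the 7 beside 45.4% of genes, Plin3 being the exception. Between IWAT and RWAT edgeR, DESeq2 (0.935% of all genes) and limma-voom called 0 of the 7, none had an unadjusted p under 0.05, and edgeR called 0% of all genes. Sample quality weights gave 5 of the 7 there, beside 21.0% of genes. In that pair the log2 fold change was 1.78 for Plin5 (SE 1.09) and 2.89 for Cidea (SE 1.82), with adjusted p = 0.871 for both. For Plin3, EWAT was higher than RWAT in every library, as for 8.23% of genes. In a test of any difference among the 4 depots, edgeR called 0 of the 7 beside 0.512% of all genes, with Plin5 (adjusted p = 0.129) and Cidea (adjusted p = 0.182) at an unadjusted p under 0.05, as were 3283 of all genes. DESeq2 called both in that test (adjusted p = 0.000413 and 0.0312) beside 11.2% of genes, limma-voom called 0 (0.0992% of genes), and with sample quality weights it called 5 beside 43.4% of genes.

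Ratios of members within a library, with 0.1 TPM added to each gene, were compared by exact two-sided permutation over libraries, in 15 tests of 5 ratios. None had an adjusted p under 0.05. The smallest p possible before adjustment was 0.00455 for BAT against white fat, 0.0119 for IWAT against EWAT and RWAT, and 0.1 for EWAT against RWAT. Over 15 tests a lone result therefore could not be called, and no test of EWAT against RWAT could be. The log2 ratio of Plin4 to Plin1 in TPM was −1.15, −0.62 and −0.70 in BAT 1 to BAT 3, and −0.60, −0.54 and −0.02 in IWAT 1 to IWAT 3. EWAT 1 to EWAT 3 had −0.36, −0.13 and −0.11, and RWAT 1 to RWAT 3 had −0.26, 0.30 and 0.29. The BAT mean of −0.82 ± 0.29 (SD, n = 3) stood against −0.16 ± 0.32 in white fat (SD, n = 9), a difference of −0.66 (exact permutation p = 0.00909, adjusted p = 0.136). All BAT libraries lay below all white ones, though BAT 2 and IWAT 1 were only −0.62 against −0.60. Plin1 had an effective length of 1539 to 1643 bases in BAT and 1573 to 1781 bases in white fat, and with CPM in place of TPM, an alternative chosen after seeing the data that leaves length out, the difference was −0.58 (exact permutation p = 0.0182, adjusted p = 0.136) and BAT and white fat overlapped.

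The ratio of Cidea to Cidec was 0.456, 0.0274 and 0.327 in BAT 1 to BAT 3 and 0.0543, 0.0730 and 0.0248 in IWAT 1 to IWAT 3. EWAT 1 to EWAT 3 had 0.000223, 0.00564 and 0, and RWAT 1 to RWAT 3 had 0.0189, 0.00429 and 0.00111. BAT 2 lay within the range of IWAT, and IWAT 1 to IWAT 3 all lay above EWAT and RWAT. On the log2 scale with 0.1 TPM added, BAT exceeded white fat by 4.80 (exact permutation p = 0.0273, adjusted p = 0.136), with a range of 4.05 (without BAT 1) to 6.07 (without BAT 2) when a library was left out. The size depends on the value added, since EWAT 3 holds 0 TPM of Cidea: with 1 TPM added the difference was 3.88. IWAT exceeded EWAT and RWAT by 4.52 (exact permutation p = 0.0238, adjusted p = 0.136), and by 3.16 with 1 TPM added. Between EWAT and RWAT the difference was −2.65 (exact permutation p = 0.3, where 0.1 is the smallest this design allows).

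For Plin5 to Plin1, the log2 ratio averaged −4.79 ± 1.53 in BAT (SD, n = 3) against −6.67 ± 1.05 in white fat (SD, n = 9; exact permutation p = 0.05, adjusted p = 0.188), with BAT 2 at −6.51 inside the white range. The difference of 1.88 was 1.29 without BAT 1 and 2.74 without BAT 2. EWAT libraries, at −8.75 to −7.15, all lay below RWAT libraries, at −6.48 to −6.01 (exact permutation p = 0.1, the smallest possible). Plin2 to Plin1 spanned −1.63 to 0.83 in BAT and −1.32 to 3.45 in white fat, a difference of means of −1.41 (exact permutation p = 0.245, adjusted p = 0.367). In linear terms Plin2 had 0.323 times the TPM of Plin1 in BAT 2 and 0.402 times in IWAT 1, but 10.9 times in EWAT 3 and 8.33 times in RWAT 2. Plin3 to Plin1 spanned −5.39 to −3.11 in BAT and −5.19 to −1.65 in white fat (exact permutation p = 0.318, adjusted p = 0.367).

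**Figure D4:**
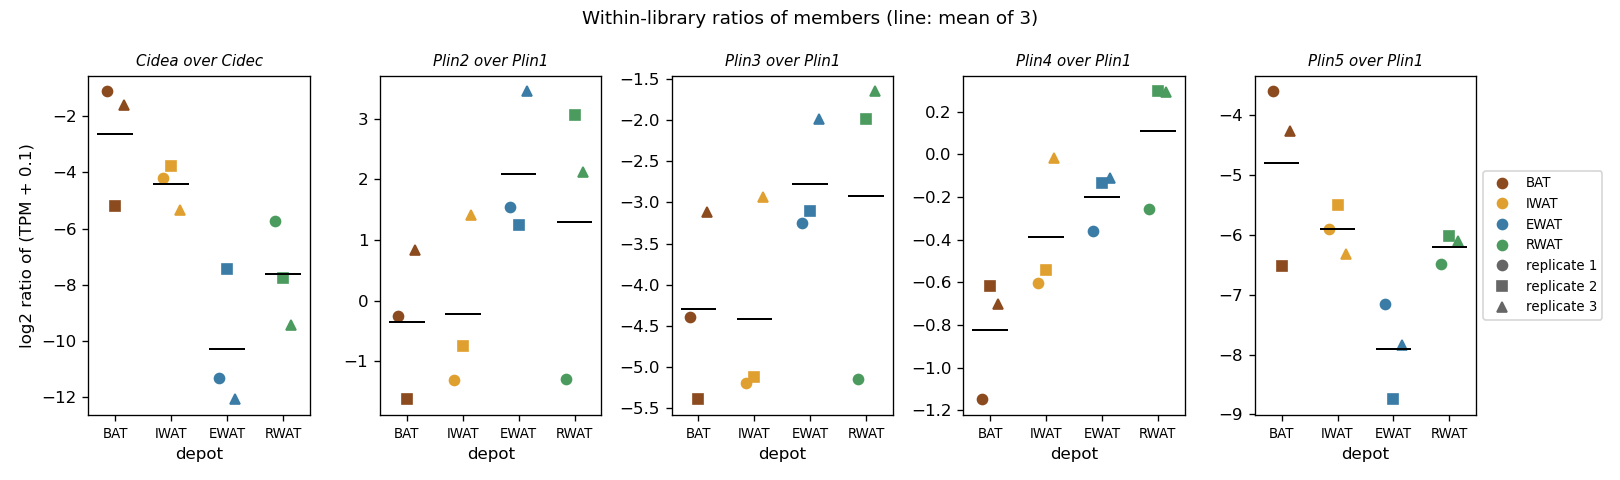
Log2 ratio of TPM + 0.1 of 5 pairs of members (vertical axes) by depot (horizontal axes), with 1 point per library and a line at the mean of 3. For Plin4 over Plin1 the 3 BAT libraries lie at −1.15 to −0.62, below the white libraries, while Cidea over Cidec in BAT 2 lies among the IWAT libraries.

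Over the 12 libraries, which share depots and scaling and are described here with no test, the log2 CPM of Plin1 had a Pearson correlation of 0.988 with Cidec and 0.977 with Plin4. Plin4 and Cidec had 0.970, and after subtracting depot means these 3 pairs had 0.982, 0.988 and 0.987. Plin5 and Cidea had 0.915, and 0.716 after subtracting depot means. Both also went with the other 3 genes: Plin1 had 0.837 with Plin5 and 0.827 with Cidea. After subtracting depot means, Plin5 had 0.813 with Plin1, 0.715 with Plin4 and 0.730 with Cidec, and Cidea had 0.762, 0.730 and 0.777. Plin4 and Plin5, neighbours on the chromosome, had 0.756. Plin2 had −0.341 with Plin1, −0.447 with Plin4, −0.396 with Cidec and 0.510 with Plin3. Plin2 thus had negative values with each of the 3 genes that moved together.

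Plin1, Plin4, Cidec, Plin5 and Cidea also tracked cell type markers, and Plin2 and Plin3 did so less closely over the 12 libraries. The part of these markers in the results was not tested. With the mean log2 CPM of the 15 adipocyte markers, Plin1 had a correlation of 0.992, Cidec 0.978 and Plin4 0.970 over the 12 libraries, and with the 15 macrophage markers they had −0.841, −0.809 and −0.829. With the 10 brown adipocyte markers, Plin5 had 0.951 and Cidea 0.931, and after subtracting depot means 0.848 and 0.735. These values were not particular to brown markers: with the adipocyte markers Plin5 had 0.872 and Cidea 0.869, and after subtracting depot means 0.802 and 0.768. With the PPAR genes and coregulators, depot means subtracted, Plin5 had 0.880 and Cidea 0.761, while Plin1 had 0.931, Cidec 0.921 and Plin4 0.880. With the 16 skeletal muscle markers Plin5 had 0.425 over the 12 libraries and −0.207 after subtracting depot means. Plin2 had 0.389 with the macrophage markers and −0.362 with the adipocyte markers, and 0.226 and −0.316 after subtracting depot means. Its highest value after that subtraction was 0.628, with the endothelial markers (0.140 over the 12 libraries). In EWAT 3, the library with the most Plin2, the macrophage markers summed to 8699 CPM, the highest of all, but EWAT 2, at 8622 CPM, held 663 CPM of Plin2. For Plin3 the highest value over the marker lists was 0.559, with the brown markers (0.620 after subtracting depot means).

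**Figure D5:**
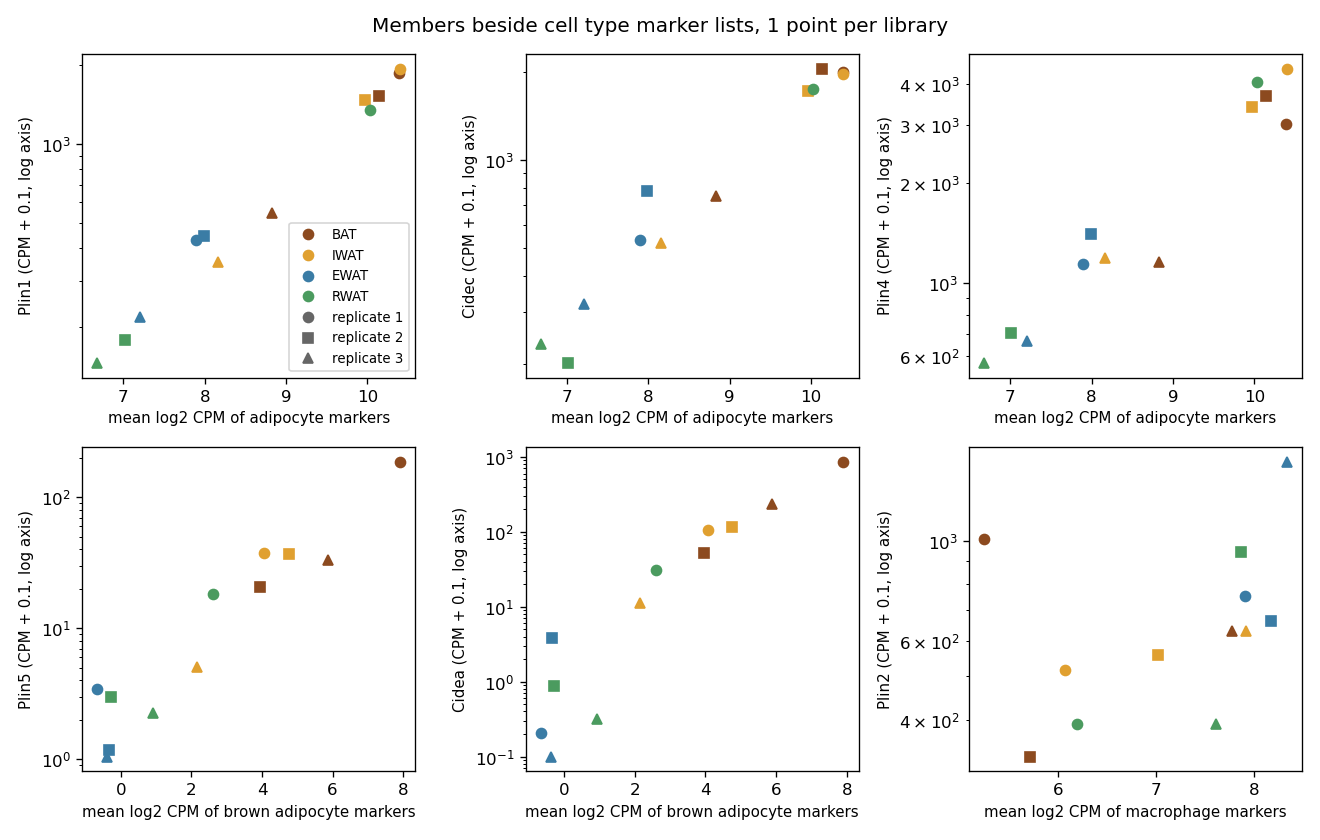
CPM + 0.1 of 6 members (vertical, log axes) against the mean log2 CPM of a marker list (horizontal axes), 1 point per library, coloured by depot. Plin1, Cidec and Plin4 form near-straight lines with adipocyte markers and Plin5 and Cidea are highest where brown markers are high, while Plin2 shows no such line with macrophage markers (r = 0.389, n = 12).

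Genes of the same pathway were described as lists beside all genes. Of 28 droplet partners (lipases, their regulators, enzymes of triglyceride synthesis and proteins of droplet formation), 26 were measured, and edgeR called 0 in each comparison run. Lipe stands in this list and among the adipocyte markers, and Ppargc1a among the brown markers and in the next list. Their median log2 fold change was 0.94 between BAT and white fat, against −0.07 for all genes, with 24 of 26 above 0. Between IWAT and the average of EWAT with RWAT the median was 1.05 (23 of 26 above 0), and between EWAT and RWAT it was −0.53 (6 above 0). For all genes these medians were −0.05 and −0.04. The mean log2 CPM of the list was 7.12, 5.38 and 5.42 in RWAT 1 to RWAT 3, against 6.04, 6.12 and 5.64 in EWAT 1 to EWAT 3. RWAT 1 alone lay above EWAT, so no direction is given for these partners between EWAT and RWAT. The most abundant was Acsl1, the long-chain acyl-CoA synthetase of adipocytes, at 4007, 3211 and 1221 CPM in BAT 1 to BAT 3 and 3828, 3165 and 929 CPM in IWAT 1 to IWAT 3. The EWAT libraries held 642, 647 and 394 CPM of Acsl1, and RWAT 1 to RWAT 3 held 2209, 242 and 240 CPM, so that its 5 highest libraries were those of Plin1. Its log2 fold change was 1.36 between BAT and white fat (SE 0.66, edgeR adjusted p = 0.297).

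Of 18 PPAR genes, partners and coregulators, which control droplet protein genes in adipocytes, edgeR called 0 in the comparisons of BAT with white fat, of IWAT with EWAT and RWAT, and of EWAT with RWAT. Their medians were 1.05, 0.77 and −0.26, against −0.07, −0.05 and −0.04 for all genes, with 17, 17 and 4 of 18 above 0. The mean log2 CPM of the list was 5.32, 3.69 and 4.21 in RWAT 1 to RWAT 3, against 4.31, 4.30 and 3.93 in EWAT 1 to EWAT 3. RWAT 1 alone lay above every EWAT library, so no direction is given for these genes between EWAT and RWAT. Cebpa, the adipocyte C/EBP factor and the most abundant of them, held 730, 749 and 264 CPM in BAT 1 to BAT 3, 724, 607 and 186 CPM in IWAT 1 to IWAT 3, 197, 232 and 165 CPM in EWAT 1 to EWAT 3 and 519, 110 and 101 CPM in RWAT 1 to RWAT 3. The 15 adipocyte markers had a median of 0.99 between BAT and white fat with 0 called, and Plin1 (1.05) and Cidec (0.96) lay close to it. Of the 10 brown adipocyte markers edgeR called 4 higher in BAT, with a median of 4.88, and Plin5 and Cidea, at 3.48 and 5.22, lay either side of it. Macrophage markers had a median of −0.73 and skeletal muscle markers of 7.22 in that comparison, with 0 called in each. Endothelial markers and B and T cell markers had 0 called in these 3 comparisons, and 2 of 11 stromal and mesothelial markers (Upk3b and Wt1, genes of mesothelium) were lower in IWAT than in the average of EWAT with RWAT.

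Among 9843 genes with a mean log2 CPM of at least 3, those with the pattern most like a member over the 12 libraries were ranked by Pearson correlation. For Plin1 they were Prodh (0.996), Lipe (0.996) and Adh1 (0.994), for Plin4 Apol6 (0.996), Abcd2 (0.993) and Retn (0.989), and for Cidec Hacd2 (0.993), Car3 (0.992) and Gstz1 (0.990). For Plin5 they were Fam210a (0.983), Kcnk3 (0.982) and mt-Ts1 (0.981), and for Cidea Mterf4 (0.964), Ifi27l2a (0.950) and Pck1 (0.949). For Plin2 they were Inpp5b (0.931), Atf6 (0.926) and Sgpl1 (0.924), and for Plin3 they included Hmg20b (0.939) and Ddx47 (0.934). With depot means subtracted, Prodh and Lipe again ranked among the first 3 for Plin1, Apol6 and Retn for Plin4, Fam210a for Plin5, Mterf4 for Cidea, and Ddx47 for Plin3, while the first 3 for Plin2 (Prpf31, Eif4a1 and Naa20) and for Cidec (Pxmp2, Adipoq and Trf) were other genes.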

How the data were processed

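RNA was depleted of ribosomal RNA and read single-end at 75 bases, per the labels' protocols. Trimmomatic 0.36, RSEM 1.3.0, DESeq2 1.10.1 and the build GRCm38.p4 are named in the submitters' processing notes. The sources used here do not name the annotation or the strand setting. Files deposited by the authors hold RSEM expected counts, the authors' TPM and, per the file headers, effective lengths and a posterior SD of each count. Totals ran from 15699912 to 25633413 counts.

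Counts were rounded and tested in edgeR 4.0.16 (R 4.3.3; filterByExpr, TMM, quasi-likelihood, 1 coefficient per depot), leaving 19154 genes; p-values were adjusted over all of them. A comparison with several depots uses the mean of their fitted log2 levels. Overlap and likeness used 1 row per symbol (19124 genes), and log2 CPM used a prior count of 2. TPM served for levels between genes and ratios, with 0.1 added. Alternatives were DESeq2 1.42.0, limma-voom (limma 3.58.1) with and without sample quality weights, other scalings and filters, the replicate number as a block, and each library left out. The fit was also run on simulated counts with known changes in BAT, drawn independently for each library. Those counts lack the differences in cell type markers seen between libraries of a depot, so they do not test the fit under such differences.

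All 8 members are named. The other genes named are, per list and comparison, the called ones with the largest changes or the most abundant one, and the 3 genes most like each member, of which 1 is not reported here. The members, lists and ratios were chosen with earlier results of these data known. Symbols and coordinates came from GENCODE M21; promoters came from RefSeq (GRCm38.p6).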

Additional observations from a re-analysis of the deposited data

How the results depend on the processing

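With the edgeR settings of the report, 0 members were called in each of 9 tests, and counts of members called under the alternatives were as follows. DESeq2 called 2 between BAT and white fat, 2 between BAT and EWAT, 1 between BAT and RWAT, 2 between IWAT and EWAT and 2 for any difference. Its shares of all genes there were 4.96%, 16.8%, 1.79%, 5.94% and 11.2%. The replicate block gave 2, 2, 0, 1 and 1 in those tests, where it called 3.39%, 18.5%, 0.00522%, 0.642% and 0.893% of all genes. Quality weights, added after seeing the data, gave 5 between IWAT and the average of EWAT with RWAT, 4 between BAT and EWAT, 6 between IWAT and EWAT, 5 between IWAT and RWAT and 5 for any difference. They called 47.6%, 24.7%, 45.4%, 21.0% and 43.4% of all genes there. With 1 library left out, the count ran from 0 to 2 between BAT and white fat (2 without RWAT 1, beside 1.27% of all genes). It ran from 0 to 2 between BAT and EWAT (2 without RWAT 1, beside 6.86%, and 1 without BAT 3, beside 9.7%), and was 0 in the other tests. Limma-voom, RLE scaling, no TMM and both other filters gave 0 in all 9 tests. Of all genes, the number called between BAT and white fat was 19 with those settings, 950 in DESeq2, 3 in limma-voom, 47 without a filter, 11 without TMM, 73 with quality weights, 649 with the block and 1 to 263 with a library left out. The median log2 fold change over all genes was −0.46 without TMM in that comparison, against −0.07 with it.

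The replicate numbers were not treated as pairs in the main fit, because no label says what libraries of the same number share. In deviations from depot means, same-numbered pairs had a mean correlation of 0.172, against −0.088 for pairs of other numbers. Of 18 same-numbered pairs, 10 had a correlation over 0.1 (range −0.347 to 0.677), and 8 of 12 libraries correlated best with their own number. What the numbers share was not tested. With the block, edgeR gave adjusted p = 0.0416 for Plin5 and 0.0473 for Cidea between BAT and white fat, 0.0196 and 0.0311 between BAT and EWAT, and 0.0498 for Plin5 between IWAT and EWAT. Of the 15 ratio tests 0 were called under each of the 16 alternatives, which says nothing of stability. With all libraries the smallest p allowed before adjustment is 0.00455, 0.0119 or 0.1, depending on the comparison. Adjustment over 15 tests keeps a lone result from being called.

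Signs were followed for 40 results. These were the 7 genes in the first 3 comparisons, the 15 ratio tests, and Plin5 and Cidea in BAT against EWAT and IWAT against EWAT. Of the 40, 32 kept their sign in every alternative run. Other single pairs of depots were left out of this count, and signs changed there too. Plin1 between BAT and IWAT and Plin2 between BAT and RWAT each changed sign in 5 of 20 alternatives. Plin5 between BAT and IWAT ran from −0.08 to 2.04. For the 8 counted results that changed sign, the cause was not tested beyond the library left out. Between EWAT and RWAT without RWAT 1, the log2 fold changes were 1.16 (Plin1), 0.74 (Plin4), 1.38 (Cidea) and 1.32 (Cidec), and the log2 ratios to Plin1 were −0.51 (Plin2) and −0.96 (Plin3). In that comparison limma-voom gave 0.050 (Plin1) and 0.19 (Cidec), quality weights gave 0.55 (Plin1), 0.19 (Plin4) and 0.66 (Cidec), the block gave 0.0034 (Cidec), and the ratio of Plin3 to Plin1 was −0.25 without EWAT 3. Plin2 between BAT and white fat was 0.27 without BAT 2, 0.05 without BAT 3, 0.09 without EWAT 3 and 0.13 without RWAT 2. Plin3 between IWAT and the average of EWAT with RWAT was −0.22 without TMM, −0.13 with quality weights and −0.057 without IWAT 1. With 1 library left out, the ranges between EWAT and RWAT were −1.065 to 1.16 (Plin1), −1.16 to 0.74 (Plin4), −7.48 to 1.38 (Cidea) and −0.87 to 1.32 (Cidec), and −0.51 to 1.66 (ratio of Plin2 to Plin1) and −0.96 to 0.78 (ratio of Plin3 to Plin1). For Plin2 between BAT and white fat the range was −0.50 to 0.27, and for Plin3 between IWAT and the other white depots −0.057 to 0.13. Depth limits Cidea in EWAT 1 and EWAT 3 (2 and 0 counts) and in RWAT 3 (4 counts), and Cideb, which had at most 20 counts in a library and 3 or fewer in 8 of 12.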
